A study of Homo sapiens with 20 samples.

Results

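The colonocyte differentiation markers are 10 genes that mature cells of the colon surface use: the anion exchanger SLC26A3, CLCA4 of a family that acts on chloride channels, the enzymes CA2, DPEP1, HSD11B2 and SULT2B1, the lipid-binding protein FABP1, the adhesion protein CDH17, and the structural proteins KRT20 and VIL1. All 10 were found by name among the 36346 gene names listed in all 20 libraries. They were chosen by earlier values of these same libraries, namely their level in control cells of each line and their difference after POLR1D silencing with each siRNA. Those values are therefore given here as a description. No p-value of a marker is printed, and where markers past a threshold are counted, the share of all genes past it stands beside the count and no support is drawn from it.

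RNA-seq was carried out 72 h after transfection in a pair of long-established lines from colorectal cancer, HT29 and SW480. POLR1D encodes a subunit that RNA polymerases I and III share, and the study silenced it because it lies in a region of chromosome 13 that is amplified in colorectal cancer and is overrepresented in both lines. HT29 had 4 libraries with a negative control siRNA (SCR), 2 with siPOLR1D-2 and 2 with siPOLR1D-3, and SW480 had 6 SCR libraries and 3 with each siRNA. No untransfected cells were analysed here, and nothing in the labels says whether the replicates were separate cultures, so the spread between them may be technical.

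In the colon, cells divide at the crypt base, move upwards and take on the features of absorptive colonocytes. There they build a brush border held up by villin (VIL1), carry keratin 20 (KRT20) in the cytoskeleton, and exchange chloride for bicarbonate through SLC26A3 with bicarbonate made by carbonic anhydrase 2 (CA2). HSD11B2 inactivates cortisol and so leaves the mineralocorticoid receptor to aldosterone, SULT2B1 transfers sulfate to sterols, and DPEP1 is a membrane dipeptidase. CDH17 (liver-intestine cadherin) joins neighbouring epithelial cells, FABP1 binds fatty acids, and CLCA4 belongs to a family of secreted or membrane-bound proteins that act on chloride channels. Transcription factors of the CDX, HNF1, HNF4 and GATA families are known to act on intestinal genes of this kind.

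Positions are those of GENCODE on build GRCh38. CLCA4 is at chr1:86547078-86580754, FABP1 at chr2:88122982-88128116, VIL1 at chr2:218419092-218453295, SLC26A3 at chr7:107765467-107803225, HSD11B2 at chr16:67430652-67437553, DPEP1 at chr16:89613308-89638456, KRT20 at chr17:40875941-40885227 and SULT2B1 at chr19:48552075-48599425. All 10 markers are protein-coding genes. CLCA4, CA2 and HSD11B2 each overlap a non-coding gene on the opposite strand, VIL1 overlaps the protein-coding gene USP37 there, and CDH17 overlaps a pseudogene on its own strand. Whether strand was used when reads were assigned is not given in the sources used here, so for these 5 genes reads of the partner may be included.

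The start-site sequences of 6 markers (CLCA4, DPEP1, FABP1, KRT20, SLC26A3 and SULT2B1) could be read from a RefSeq promoter table of build GRCh38.p14, which gives 250 bases before and 50 bases after each start. Only the 250 bases before the start are printed, and the RefSeq start equals the GENCODE one for CLCA4 alone among these 6. CLCA4 and KRT20 are shown because they carried the greatest differences after silencing, each in a single line, SULT2B1 because it was higher in both lines and held none of the letters searched, and FABP1 because it held 3 kinds of match while its transcript was at or near 0. Capitals mark the matches, on either strand.
CLCA4 (chr1:86546828-86547077, plus strand): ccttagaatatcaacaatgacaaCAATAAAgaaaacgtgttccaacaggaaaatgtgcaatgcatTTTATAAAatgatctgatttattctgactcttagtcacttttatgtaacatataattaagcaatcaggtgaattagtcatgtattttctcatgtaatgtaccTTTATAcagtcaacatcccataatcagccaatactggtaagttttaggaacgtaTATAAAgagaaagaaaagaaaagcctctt
KRT20 (chr17:40885243-40885492, minus strand): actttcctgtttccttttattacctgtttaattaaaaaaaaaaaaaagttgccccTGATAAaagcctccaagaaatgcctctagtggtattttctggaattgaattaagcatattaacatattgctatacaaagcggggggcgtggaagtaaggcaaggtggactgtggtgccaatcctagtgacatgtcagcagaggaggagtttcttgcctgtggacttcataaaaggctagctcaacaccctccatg
SULT2B1 (chr19:48551922-48552171, plus strand): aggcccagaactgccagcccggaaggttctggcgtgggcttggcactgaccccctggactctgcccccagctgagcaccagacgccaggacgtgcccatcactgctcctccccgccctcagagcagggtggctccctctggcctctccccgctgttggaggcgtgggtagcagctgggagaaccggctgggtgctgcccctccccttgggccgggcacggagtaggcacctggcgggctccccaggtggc
FABP1 (chr2:88128063-88128312, minus strand): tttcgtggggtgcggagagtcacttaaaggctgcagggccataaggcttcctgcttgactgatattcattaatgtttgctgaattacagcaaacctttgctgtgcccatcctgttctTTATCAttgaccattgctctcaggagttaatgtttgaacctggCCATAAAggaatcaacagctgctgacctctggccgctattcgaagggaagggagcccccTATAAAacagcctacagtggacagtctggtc

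The letters searched were TTTATGG and TTTATTG for CDX factors, CAAAGTCC for HNF4A, GTTAATNAT for HNF1, TGATAA and AGATAA for GATA factors, and TATAAA for the TATA box. CLCA4 held a CDX match (TTTATTG) 227 bases before its start and a TATA box 29 bases before it, besides 3 further TATAAA matches, of which 2 overlap each other on opposite strands. FABP1 held a CDX match (TTTATGG) at 90 bases, a GATA match (TGATAA) at 133 bases and a TATA box at 31 bases. KRT20 held a GATA match (TGATAA) at 195 bases, and SLC26A3 held the HNF1 letters at 83 bases. One of 4 DPEP1 starts held a TATA box, 29 bases before the start. Of the 35116 promoters in the table, 2.54% held TTTATGG, 4% held TTTATTG, 0.792% the HNF1 letters, 7.53% TGATAA and 11.5% TATAAA on either strand. The HNF4A letters (1.2% of promoters) and AGATAA (10.3%) were in none of the 6 markers. A match is a description of the sequence and does not show that a factor binds there.

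Expression was read as normalised read counts, which the authors scaled with DESeq2 separately in each line. Estimated library depth was 13.53 to 22.78 M reads in HT29 and 18.68 to 27.59 M reads in SW480, and the values are not whole reads, so no counting interval was derived. POLR1D itself was lower in all silenced libraries of both lines. In HT29 the SCR mean was 5048 ± 700 and the silenced mean 3078 ± 452 (SD, n = 4 each), a log2 difference of -0.72 (SE 0.14, adjusted p = 0.355 from limma). The SW480 means were 2116 ± 281 and 1036 ± 183 (SD, n = 6 each), a log2 difference of -1.04 (SE 0.13, adjusted p = 0.00099 from limma), and the groups did not overlap in either line. SCR replicate 1 stood apart from the other 7 HT29 libraries on the first principal component over all genes tested, which held 43.3% of the variance, and its summed goblet cell markers were 23225, against a median of 3032 over the 4 SCR libraries. The 12 SW480 libraries fell on 2 sides of their first component (42.0% of the variance), with SCR replicates 1 to 3 and siPOLR1D-2 replicates 1 and 2 on one side and the other 7 libraries, among them all of siPOLR1D-3, on the other. Marker differences from SCR that turned or moved by over 1.5 times without HT29 SCR replicate 1 are given with and without it, and the SW480 differences are also given within each side.

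Control cells of the 2 lines differed in which markers they carried. Because the lines were normalised separately, levels are set side by side without a test. KRT20 was 2169 ± 1114 (SD, n = 4) in HT29 SCR cells and 5.25 ± 3.77 (SD, n = 6) in SW480. SULT2B1 was 634 ± 73.0 in HT29 and 53.7 ± 25.9 in SW480. CLCA4 was 6.98 ± 2.10 in HT29 and was listed at 0 in all 6 SW480 SCR libraries. These 3 genes were higher in every HT29 SCR library than in any SW480 SCR library.

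The opposite order was seen for CDH17, VIL1 and DPEP1. CDH17 was 10.3 ± 9.07 in HT29 and 444 ± 70.6 in SW480 (43.1 times the HT29 mean), VIL1 was 978 ± 201 and 3974 ± 1790, and DPEP1 was 82.6 ± 24.3 and 389 ± 130 (SD, n = 4 and 6). The control groups of the 2 lines overlapped for HSD11B2, CA2, SLC26A3 and FABP1. HSD11B2 was 29.4 ± 8.06 in HT29 and 65.2 ± 20.7 in SW480, CA2 was 30.9 ± 10.5 and 12.2 ± 4.88, and SLC26A3 was 10.8 ± 8.50 and 17.9 ± 8.47. FABP1 was listed at 0 in 3 of 4 HT29 and 4 of 6 SW480 SCR libraries and reached 1.14 and 3.31 in the others. Neither line therefore carried all 10 transcripts at levels above a normalised count of 10.

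**Figure D1:**
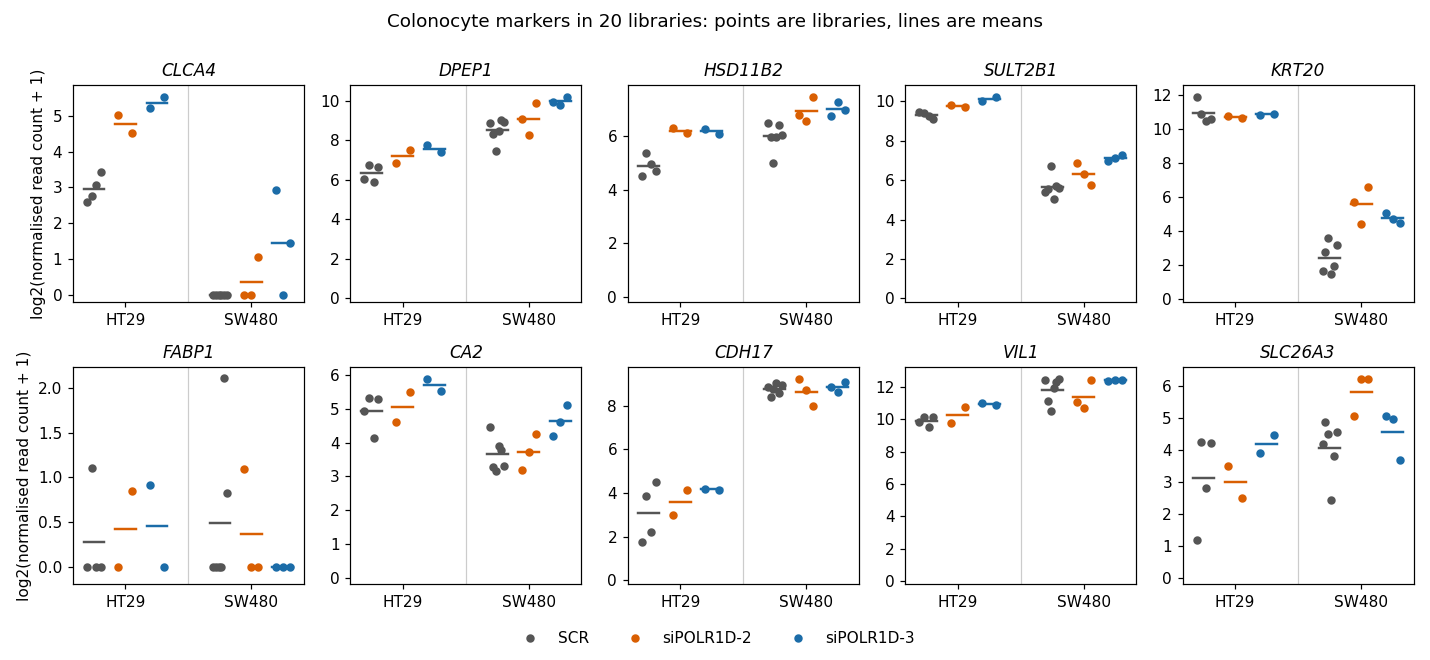
Normalised read counts of the 10 markers, as log2(count + 1) on the vertical axis, in HT29 and SW480 libraries transfected with SCR, siPOLR1D-2 or siPOLR1D-3. Each point is 1 library and each line is the mean of a group; CLCA4 in HT29 and KRT20 in SW480 show silenced libraries above all SCR libraries of the line.

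For the comparison with SCR, genes were tested with limma on log2(count + 1) where the value was at least 10 in at least 4 HT29 or 6 SW480 libraries. In HT29, 9 of the 10 markers passed this filter, all but FABP1, and in SW480 8 passed, all but CLCA4 and FABP1. CLCA4 in HT29 reached 10 in none of the 4 SCR libraries and KRT20 in SW480 in 1 of 6, so both passed only through the silenced libraries, in which they are high. Log2 differences are on the log2(count + 1) scale, which understates the change of low genes, and are silenced minus SCR.

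CLCA4 had the greatest difference among the markers in HT29. Its normalised read count was 4.99, 5.83, 7.32 and 9.78 in the 4 SCR libraries, 31.1 and 21.8 with siPOLR1D-2, and 35.9 and 44.9 with siPOLR1D-3. All 4 silenced libraries were above all SCR libraries, and the means differed 4.79-fold. The log2 difference was 2.10 (SE 0.35), and it was 1.97 without SCR replicate 1. In SW480, where SCR libraries were listed at 0, CLCA4 was 0, 0 and 1.08 with siPOLR1D-2 and 6.62, 0 and 1.75 with siPOLR1D-3. No fold is given there, as every value was under 10. The related genes CLCA1 and CLCA2 were low in HT29, with means of 2.06 and 2.20 in SCR and 6.72 and 4.72 in silenced cells, and were listed at 0 in all 12 SW480 libraries.

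KRT20 showed the reverse pattern. Its 2 rows in each library hold identical values, so its summed levels are doubled while the ratio of its means is not. In SW480 the summed KRT20 count was between 1.73 and 11.2 in SCR libraries with a median of 4.27, it was 51.8, 20.7 and 94.6 with siPOLR1D-2, and it was 33.02, 24.9 and 21.3 with siPOLR1D-3. Each of the 6 silenced libraries was above all 6 SCR libraries, and the mean was 7.82 times the SCR mean. The log2 difference was 2.74 (SE 0.48), and it was 2.51 with the identical rows counted once. Even so, the mean of 41.0 in silenced SW480 cells remained far under the level of HT29 cells.

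In HT29, KRT20 was 3813, 1889, 1412 and 1563 in SCR, 1761 and 1649 with siPOLR1D-2, and 1877 and 1891 with siPOLR1D-3. The groups overlapped, and the spread among SCR libraries came mainly from SCR replicate 1. The log2 difference was -0.16 (SE 0.27), and without SCR replicate 1 it was 0.15, so its sign rested on that library. KRT19, a keratin of simple epithelia, increased in SW480 from 6940 ± 1652 to 11268 ± 2501 (SD, n = 6), with a log2 difference of 0.70 (SE 0.16, adjusted p = 0.0226 from limma). That call was lost without SCR replicate 4 and without SCR replicate 6.

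HSD11B2 was higher after silencing in both lines. In HT29 its count was 21.9, 40.3, 30.3 and 25.0 in SCR, 77.5 and 67.2 with siPOLR1D-2, and 76.2 and 65.7 with siPOLR1D-3. In SW480 it ranged from 31.1 to 89.1 in SCR (median 62.8), and was 107, 93.7 and 173 with siPOLR1D-2 and 106, 153 and 123 with siPOLR1D-3. Silenced and SCR libraries did not overlap in either line, and the means differed 2.44-fold in HT29 and 1.93-fold in SW480. The log2 difference was 1.29 (SE 0.24) in HT29 and 0.98 (SE 0.25) in SW480, and each siRNA alone gave between 0.95 and 1.30. Of the 7 genes listed for the mineralocorticoid response that this enzyme guards, 5 were tested in each line. None passed the threshold, which 0% of all genes passed in HT29 and 6.73% in SW480. The receptor gene NR3C2 had a log2 difference of 0.05 (SE 0.53) in HT29 and 0.17 (SE 0.51) in SW480.

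DPEP1 followed HSD11B2 in HT29. Its count was 65.5, 107, 58.3 and 99.3 in SCR, 116 and 183 with siPOLR1D-2, and 214 and 166 with siPOLR1D-3, with no overlap and a log2 difference of 1.04 (SE 0.26). In SW480, DPEP1 ranged from 178 to 524 in SCR (median 417), and was 534, 305 and 961 with siPOLR1D-2 and 994, 889 and 1164 with siPOLR1D-3. In 5 of 6 silenced SW480 libraries it was above all SCR libraries, siPOLR1D-2 replicate 2 being the exception, and the log2 difference was 1.01 (SE 0.33).

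SULT2B1 was also higher after silencing in both lines. In HT29 it was 703, 680, 609 and 542 in SCR, 907 and 833 with siPOLR1D-2, and 1029 and 1192 with siPOLR1D-3, without overlap and with a log2 difference of 0.64 (SE 0.14). In SW480 it ranged from 32.6 to 105 in SCR (median 46.2), and was 117, 77.3 and 52.9 with siPOLR1D-2 and 124, 139 and 152 with siPOLR1D-3, with a log2 difference of 1.04 (SE 0.31). The groups overlapped there because SCR replicate 3 reached 105, while the other 5 SCR libraries were at or under 51.4. Its relatives SULT1A1 and SULT1B1, which also transfer sulfate, had log2 differences between -0.38 and -0.02 in the 2 lines and did not pass the threshold.

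VIL1, the villin of the brush border, was not shown to respond differently in HT29 and SW480. The difference between its responses, SW480 minus HT29, was -0.58 (SE 0.57). In HT29 VIL1 was 915, 1134, 722 and 1142 in SCR, 881 and 1705 with siPOLR1D-2, and 2059 and 1878 with siPOLR1D-3. In 3 of 4 silenced libraries it was above all SCR libraries, and the log2 difference was 0.69 (SE 0.27). In SW480 it ranged from 1476 to 5663 in SCR (median 4475), was 2116, 1646 and 5401 with siPOLR1D-2 and 5340, 5552 and 5614 with siPOLR1D-3, and had a log2 difference of 0.11 (SE 0.40), which was -0.15 without SCR replicate 3 and 0.35 without siPOLR1D-2 replicate 2. The SW480 values overlapped entirely, since no silenced library was above or below all SCR libraries.

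Silenced and SCR libraries overlapped for CA2 and CDH17 in both lines and for SLC26A3 in HT29. CA2 (chr8:85463852-85481493) ranged from 16.5 to 39.3 in SCR and from 23.4 to 57.9 in silenced HT29 cells, with a log2 difference of 0.46 (SE 0.37), and from 7.98 to 20.8 and from 8.08 to 33.9 in SW480, with 0.53 (SE 0.37). It was above all SCR libraries in 3 of 4 silenced HT29 libraries and in 2 of 6 in SW480. Leaving out 1 library gave 0.20 (without SCR replicate 3) to 0.72 (without siPOLR1D-2 replicate 1) in HT29 and 0.34 (without siPOLR1D-3 replicate 3) to 0.73 (without siPOLR1D-2 replicate 1) in SW480. CDH17 (chr8:94127171-94217303) had a log2 difference of 0.79 (SE 0.65) in HT29, where SCR libraries spanned 2.32 to 21.6, and of -0.02 (SE 0.19) in SW480, where the SCR and silenced means were 444 and 448. In HT29 the CDH17 difference was 0.34 without SCR replicate 1 and 1.26 without SCR replicate 4. SLC26A3 in HT29 was 1.26, 18.1, 5.995 and 17.8 in SCR, 10.4 and 4.65 with siPOLR1D-2, and 14.2 and 21.4 with siPOLR1D-3. Its log2 difference of 0.49 (SE 0.74) became -0.16 without SCR replicate 1.

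In SW480, SLC26A3 ranged from 4.42 to 28.6 in SCR (median 19.6), and was 32.3, 73.5 and 73.7 with siPOLR1D-2 and 32.8, 30.1 and 11.9 with siPOLR1D-3. In 5 of 6 silenced libraries it was above all SCR libraries, siPOLR1D-3 replicate 3 being the exception, with a log2 difference of 1.14 (SE 0.49). SLC26A4, an anion exchanger of the same family, decreased in SW480, from 131 ± 166 to 23.7 ± 12.8 (SD, n = 6), with a log2 difference of -1.99 (SE 0.52, adjusted p = 0.0362 from limma). SCR libraries ranged from 46.4 to 468 and silenced libraries from 12.4 to 43.2, so the groups did not overlap. That call was lost in 7 of 12 fits that left out a library, namely SCR replicates 2, 4 and 6, each siPOLR1D-2 replicate and siPOLR1D-3 replicate 1. FABP1 was at or under 1.14 in all silenced libraries of both lines, and listed at 0 in 2 of 4 in HT29 and 5 of 6 in SW480.

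**Figure D2:**
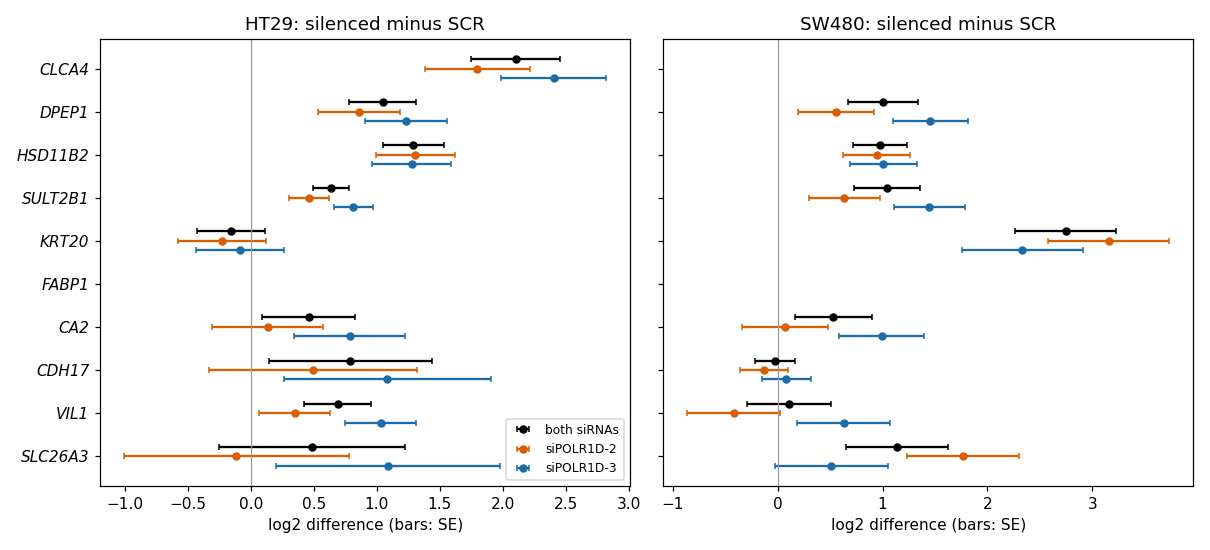
Log2 difference of each tested marker from SCR on the horizontal axis, with bars of 1 SE, in HT29 and SW480, for both siRNAs together (black), siPOLR1D-2 and siPOLR1D-3. CA2, DPEP1, HSD11B2 and SULT2B1 lie right of 0 in both lines with either siRNA, where the CA2 bars for siPOLR1D-2 cross 0. KRT20 does so in SW480 alone (2.74 against -0.16 in HT29). Both siRNAs share the SCR libraries of a line.

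These counts stand beside the share of all genes with the same property, and nothing is read from them, since the same values chose the members. In HT29, 0 of 9 markers were among the genes past an adjusted p of 0.05, as were 0 of all 13274 genes tested (0%). At an unadjusted p under 0.05 there were 5 of 9 markers (CLCA4, DPEP1, HSD11B2, SULT2B1 and VIL1) and 10.7% of all genes. All silenced libraries were above all SCR libraries for 4 of 9 markers and for 2.72% of all genes. In SW480, 2 of 8 markers (HSD11B2 and KRT20) were past the adjusted threshold, where 6.73% of 15019 genes were past it in either direction and 2.44% were higher. At an unadjusted p there were 5 of 8 markers and 23.2% of genes, and 2 of 8 markers and 1.68% of genes had no overlap with all silenced libraries higher. HSD11B2 was no longer past the adjusted threshold in 8 of 12 fits that left out a library. The study's own DESeq2 test of these same libraries put DPEP1, HSD11B2, SULT2B1 and POLR1D past an adjusted p of 0.05 in both lines. The 0 in HT29 is thus that of the limma fit used here. No share of all genes is given in the study for its test.

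The SW480 differences are given next within each side. On the side of the 5 libraries, VIL1 was 1476 to 5559 in SCR and 1646 to 2116 in silenced cells, and on the side of the 7 it was 3867 to 5663 and 5340 to 5614. Within the 7 libraries, DPEP1 was 358 to 524 in 3 SCR and 889 to 1164 in 4 silenced libraries, without overlap and with a log2 difference of 1.15. Within the 5, the groups overlapped (178 to 476 and 305 to 534) and the difference was 0.43. KRT20 differed by 2.41 within the 5 libraries and 3.03 within the 7, HSD11B2 by 0.84 and 0.96, SULT2B1 by 0.70 and 1.32, and SLC26A3 by 1.11 and 1.39, with silenced libraries of each side above the SCR libraries of that side for KRT20 and HSD11B2. CA2, VIL1 and CDH17 had opposite signs on the 2 sides, at -0.18 and 0.88 for CA2, -0.49 and 0.19 for VIL1, and 0.28 and -0.22 for CDH17. Among the 5 libraries, SCR replicate 1 scored closest to the other side (-14.1, the next -52.7). Its CA2 (20.8) and VIL1 (5559) were the highest of the 5. The other SCR and silenced libraries there had CA2 of 8.77 and 7.98 against 8.08 and 12.3, and VIL1 of 2193 and 1476 against 2116 and 1646. The negative signs of CA2 and VIL1 there thus rested on that library. What separates the sides is not named in the labels, and its part in these differences was not tested.

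**Figure D3:**
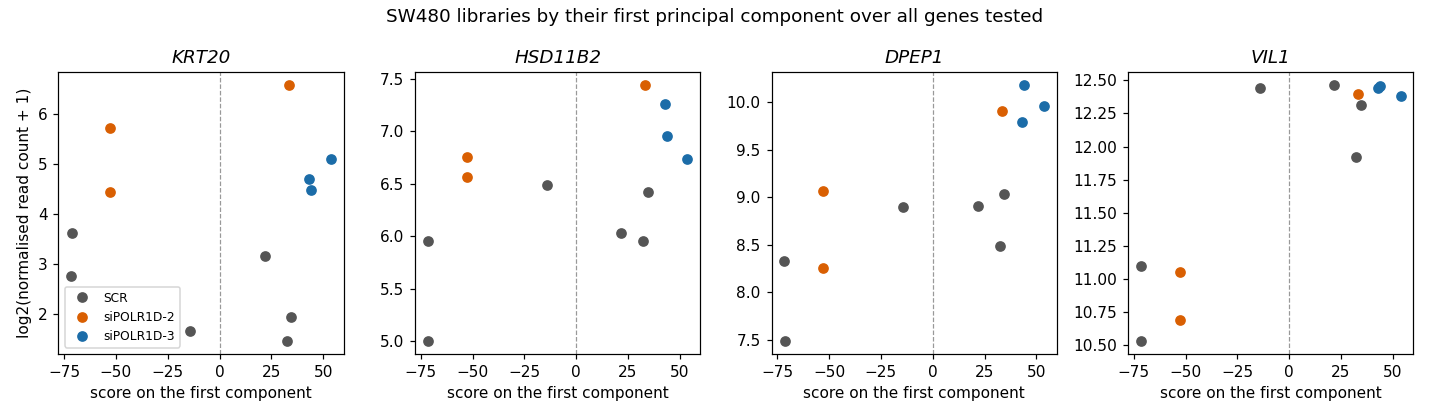
KRT20, HSD11B2, DPEP1 and VIL1 in the 12 SW480 libraries, as log2(normalised read count + 1), against the score of each library on the first principal component over all genes tested; the dashed line at 0 divides the 2 sides. KRT20 and HSD11B2 separate silenced from SCR libraries on both sides, whereas VIL1 is low in 4 of the 5 libraries on the left.

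Both siRNAs were compared with the same SCR libraries. The log2 difference from SCR with siPOLR1D-2 and siPOLR1D-3 was -0.11 and 1.09 for SLC26A3 in HT29, and in SW480 it was -0.42 and 0.63 for VIL1 and -0.13 and 0.08 for CDH17. Between siPOLR1D-3 and siPOLR1D-2, 0 of 9 markers in HT29 passed an adjusted p of 0.05, and 0 at an unadjusted p under 0.05, against 0% and 1.56% of all genes. In SW480 it was 0 of 8, against 3.32% of all genes, and at an unadjusted p it was DPEP1 alone, against 21.8%. DPEP1 was higher with siPOLR1D-3 by 0.90 (95% interval 0.00016 to 1.81) on the log2 scale, SULT2B1 by 0.81 (-0.04 to 1.66), CA2 by 0.92 (-0.10 to 1.94) and VIL1 by 1.05 (-0.06 to 2.16). SLC26A3 and KRT20 lay the other way, with differences of -1.26 (-2.60 to 0.09) and -0.83 (-2.27 to 0.62). For HSD11B2 the difference was 0.06 (-0.73 to 0.86). As all siPOLR1D-3 libraries and only 1 siPOLR1D-2 library were on the side of the 7, the siRNA and the side cannot be told apart in SW480.

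In HT29 the intervals between the siRNAs all included 0. VIL1 differed by 0.68 (-0.06 to 1.42), CLCA4 by 0.61 (-0.49 to 1.70), SULT2B1 by 0.35 (-0.06 to 0.76) and HSD11B2 by -0.03 (-0.86 to 0.80), siPOLR1D-3 minus siPOLR1D-2. POLR1D was 46.4% below its SCR mean with siPOLR1D-3 and 31.6% with siPOLR1D-2. With siPOLR1D-2, replicate 1 was the lowest silenced HT29 library for DPEP1, CA2, CDH17 and VIL1, and replicate 2 was the lowest for CLCA4, SULT2B1, KRT20 and SLC26A3.

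Whether the response differed between the lines was examined in a fit of all 20 libraries, for the 8 markers tested in both. KRT20 differed by 2.90 (SE 0.62), SW480 minus HT29, and by 2.59 without HT29 SCR replicate 1, but it was not among the 5 of 12724 genes (0.0393%) that passed an adjusted p of 0.05, in this fit or in any of the alternatives run. At an unadjusted p under 0.05 it was 1 of 8 markers, beside 8.58% of genes. These differences are built from the values that chose the markers, and nothing is read from either count. For DPEP1, HSD11B2, SULT2B1 and CA2 the differences between the lines were between -0.31 and 0.40, with SEs of 0.37 to 0.53. CDH17, VIL1 and SLC26A3 had differences of -0.81 (SE 0.58), -0.58 (SE 0.57) and 0.65 (SE 0.88). Without HT29 SCR replicate 1 the difference between the lines was -0.36 for CDH17, 1.30 for SLC26A3 and -0.19 for HSD11B2.

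Other genes of the absorptive colonocyte were then listed, 40 in all without the 10 markers, to see how many moved. In each line 20 of the 40 were tested and none passed the threshold, and the median log2 difference was -0.07 in HT29 and 0.02 in SW480, beside medians of 0.00019 and 0.01 over all genes tested. At an unadjusted p under 0.05, 2 were higher and 1 lower in HT29, where 10.7% of all genes were past it in either direction. In SW480 1 was higher and 2 lower, where 23.2% of all genes were past it. The adjusted threshold was passed by 0 of 13274 genes in HT29, so no list could hold any there, and by 6.73% of genes in SW480. The same shares stand beside the counts of the lists below. In HT29 SCR cells the highest means of the list were those of CEACAM1 (4320), LGALS4 (3340, with libraries from 1627 to 7256) and TSPAN1 (2980), and in SW480 those of ABCB1 (7253), SLC16A1 (7227) and SLC26A2 (883). CA1, a carbonic anhydrase like CA2, had a log2 difference of 0.81 (SE 0.49) in HT29, and PHGR1 had means of 56.3 in SCR and 125 in silenced HT29 cells and of 12.6 and 29.6 in SW480, with neither past the threshold. Other genes of the list went the other way. PLAC8 had log2 differences of -0.60 (SE 0.11) in HT29 and -1.16 (SE 0.48) in SW480, also not past the threshold. PIGR, under the filter, had means of 25.8 in SCR and 0.85 in silenced SW480 cells. DPP4, a brush border peptidase, had 0.31 (SE 0.27) in HT29 and -1.30 (SE 0.40) in SW480. MS4A12 and GUCA2B, which mark mature colonocytes, were listed at 0 in the SCR libraries of both lines. Between the siRNAs in SW480, SLC26A2 and ABCB1 were higher with siPOLR1D-3 by 0.97 (SE 0.17, adjusted p = 0.0134 from limma) and 0.91 (SE 0.23, adjusted p = 0.0498 from limma). These were 2 of 20 past the threshold, beside 3.32% of all genes. The median of the 20 was 0.94, beside 0.003 over all genes tested. At an unadjusted p under 0.05, 10 were higher and 1 lower, beside 21.8% of all genes in either direction. The SW480 median of 0.02 against SCR pools both arms, in which siRNA and side cannot be told apart.

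The brush border list held 15 genes, of which 12 were tested in HT29 and 15 in SW480. None passed the threshold, beside 0% and 6.73% of all genes, and the median log2 differences were 0.22 and -0.04. USH1C, a scaffold between microvilli, had 0.88 (SE 0.25) in HT29 and -0.11 (SE 0.25) in SW480, and ezrin (EZR), which ties the membrane to actin, had 0.01 (SE 0.13) and -0.04 (SE 0.28). Between the siRNAs in SW480, 2 of the 15 passed the threshold, beside 3.32% of all genes. Both are myosins and were higher with siPOLR1D-3, MYO7B by 3.77 (SE 0.74, adjusted p = 0.0230 from limma) and MYO1A by 2.15 (SE 0.51, adjusted p = 0.0407 from limma). The villin-like gene VILL, from the list of relatives, was higher there by 2.11 (SE 0.53, adjusted p = 0.0493 from limma). The confounding of siRNA and side named above holds for all of these calls.

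Of 16 intestinal transcription factors, 12 were tested in HT29 and 13 in SW480. None passed the threshold against SCR, beside 0% and 6.73% of all genes, and the median log2 differences were -0.08 and -0.13. At an unadjusted p under 0.05, 2 were higher and 1 lower in HT29, beside 10.7% of all genes in either direction. In SW480 0 were higher and 2 lower, beside 23.2% of all genes. KLF5 was lower, by -0.21 (SE 0.11) in HT29 and -0.58 (SE 0.18) in SW480. HNF4A ranged from 117 to 274 in SCR and from 380 to 545 in silenced HT29 libraries, with a log2 difference of 1.21 (SE 0.27, adjusted p = 0.355 from limma), and had 0.09 (SE 0.22) in SW480. CDX2 was at most 0.46 in HT29 SCR libraries and between 3.96 and 7.91 in silenced ones, too low to be tested, and was 86.9 ± 44.0 (SD, n = 6) in SW480 SCR. CDX1 was listed at 0 in all HT29 SCR libraries. Between the siRNAs in SW480, CDX2 was higher with siPOLR1D-3 by 1.72 (SE 0.39, adjusted p = 0.0387 from limma). It was 1 of 13 past the threshold, beside 3.32% of all genes, and siRNA and side again cannot be told apart.

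**Figure D4:**
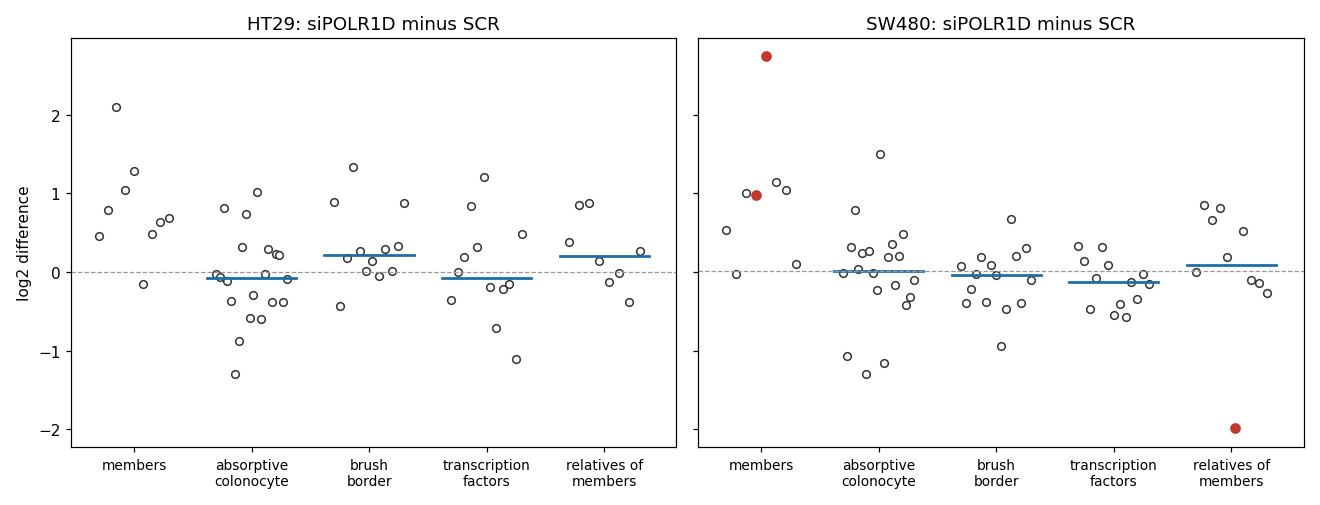
Log2 difference between siPOLR1D and SCR (vertical axis) for each tested gene among the 10 markers and in 4 lists of other genes, in HT29 and SW480. Each point is 1 gene, filled red where the adjusted p was under 0.05, blue lines are the medians of the lists and the dashed line is the median of all genes tested; 0 of 20 absorptive colonocyte genes are red in either line.

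Of 18 relatives of the markers in the same gene families, 8 were tested in HT29 and 10 in SW480, with median log2 differences of 0.21 and 0.09, and SLC26A4 was the only one past the threshold. Epithelial keratins were high in both lines, with a KRT8 mean of 95029 in HT29 and 64525 in SW480 SCR cells, and of 8 epithelial identity genes KRT19 alone passed the threshold, in SW480.

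Markers of other cells that a crypt holds were examined in the same way. Of 8 crypt stem genes, 5 were tested in HT29 and 7 in SW480. None passed the threshold. At an unadjusted p under 0.05, 3 were higher in HT29, where 10.7% of all genes were past it in either direction, and 4 in SW480, where 23.2% were, and the median log2 differences were 0.78 and 0.73. The stem cell receptor LGR5 had 1.45 (SE 0.53) in HT29 and 0.66 (SE 0.37) in SW480, and the Wnt target AXIN2 had 0.78 (SE 0.19) and 0.74 (SE 0.26). Summed crypt stem markers ranged from 3709 to 6216 in SCR and from 5950 to 8719 in silenced HT29 libraries, and from 10486 to 16577 and 14542 to 24526 in SW480. The receptor EPHB2 was higher with siPOLR1D-3 than with siPOLR1D-2 in SW480 by 1.36 (SE 0.26, adjusted p = 0.0193 from limma). It was 1 of 7 past the threshold there, beside 3.32% of all genes, and siRNA and side cannot be told apart.

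Goblet, enteroendocrine and stromal or immune genes were mostly under the filter. None of those tested against SCR passed the threshold, with 4 goblet, 1 enteroendocrine and 2 stromal or immune genes tested in HT29 and 3, 3 and 4 in SW480. Summed goblet markers ranged from 2082 to 23225 in SCR and from 2411 to 2599 in silenced HT29 libraries, and from 143 to 290 and 196 to 431 in SW480. Summed stromal and immune markers ranged from 97.7 to 114 and 69.5 to 178 in HT29, and from 321 to 808 and 321 to 920 in SW480. Summed enteroendocrine markers were at most 27.8 in SCR and 41.2 in silenced HT29 libraries, and at most 594 and 236 in SW480. ATOH1, which goblet cells need, was listed at 0 in the SCR libraries of both lines. The stromal gene LUM was lower with siPOLR1D-3 than with siPOLR1D-2 in SW480 (log2 difference -1.32, SE 0.25, adjusted p = 0.0198 from limma). It was 1 of 4 stromal or immune genes past the threshold there, beside 3.32% of all genes, with siRNA and side again confounded. The part of these cell markers in the differences of the colonocyte markers was not tested.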

How the data were processed

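RNA-seq libraries were prepared by exome capture of total RNA from HT29 and SW480 cells and quantified by the authors with kallisto (0.44.0) after FastQC (0.11.5), with hg38 named as the build per the submitters' processing notes. The kallisto annotation is not given in the sources used here. The authors deposited signal values per gene for each library, which are read counts normalised with DESeq2 (1.24.0) within a line. They are not whole reads, and the count test planned for whole reads was therefore not used.

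Rows sharing a name were summed. Testing was limited to genes reaching 10 in at least 4 HT29 or 6 SW480 libraries and was done with limma (3.58.1, R 4.3.3) on log2(value + 1) with an empirical Bayes trend, no covariate and Benjamini-Hochberg adjustment over all genes tested, at a threshold of 0.05. The fit was tested on simulated data. siPOLR1D-3 was compared with siPOLR1D-2 within each line, and the responses of the lines in 1 fit of 20 libraries. Python (3.11.15) and matplotlib (3.10.9) were used for the promoter search and plots. Motifs were searched on both strands.

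The markers, the 10 lists (138 genes, all present) and the comparisons were chosen with earlier results of these data known. Named genes are all markers, POLR1D, the called genes of each list (at most 10 by smallest p) and up to 3 genes per list with the highest SCR mean, given here for the absorptive list and otherwise where they bear on a marker. Outside this rule NR3C2, SULT1B1, CA1, PHGR1, PLAC8, PIGR, DPP4, CDX1, CDX2, CLCA1, CLCA2, LGR5, ATOH1, MS4A12 and GUCA2B, and genes called between the siRNAs, were named after their values were seen. Alternatives were other scalings, pseudocounts (0.1 and 5), filters (none, or 50), no trend, robust fit, replicate block, rows as deposited, both lines in one fit, either siRNA alone, the sides of SW480 and each library left out. Counting identical rows once was added after seeing the data.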

Additional observations from a re-analysis of the deposited data

Results flagged for a closer look

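Among 21 sets of SCR values, 1 for each marker or POLR1D and line with values that differed, 3 had 1 library far from the others by Dixon's criterion, which chance meets in about 1 in 20 groups. SULT2B1 was 105 in SW480 SCR replicate 3, while the other 5 SCR libraries were between 32.6 and 51.4. FABP1 was 1.14 in HT29 SCR replicate 2 and listed at 0 in the other 3 SCR libraries. In SW480 it was 3.31 in SCR replicate 5 and between 0 and 0.763 in the others. Both FABP1 values are near 0. SW480 SCR replicate 3 was also the highest SCR library for KRT20 and the lowest for DPEP1, HSD11B2, CA2 and VIL1.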

How the results depend on the processing

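For the markers against SCR, the direction held in every alternative run except for KRT20 and SLC26A3 in HT29 and CA2, CDH17 and VIL1 in SW480, whose signs turned in 1 of 22, 3 of 21, 1 of 28, 9 of 29 and 7 of 29 alternatives. With upper quartile normalization, all 20 SCR levels moved by less than 1 SD or not at all. The 100 values with 1 library left out are no check, since leaving out 1 library cannot move such a mean by 1 SD. Counting the identical KRT20 rows once gave 2.51 in SW480.

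The count of genes past the threshold was 0 in HT29, 1011 in SW480, 0 and 498 between siRNAs in HT29 and SW480, and 5 between the lines. For SW480 siPOLR1D against SCR it was 666 without a filter, 574 with siPOLR1D-2 alone, 0 on the side of 5 libraries, 1939 on the side of 7 and 1993 with the side as a covariate. Between siRNAs in SW480 it was 289 without a filter and 293 without a trend. Between the lines it was 8 with the filter at 50, 9 after quantile normalization and 3 without a trend. In HT29 it was 4 with both lines in one fit. Motif matches were 6 on the forward strand and 11 on both.

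With a replicate block the counts were 735 in HT29, 0 in SW480, 39 between siRNAs in SW480 and 97 between the lines. Whether same-numbered libraries belong together is not given in the labels. Mean correlations of same-numbered deviations were -0.030 in HT29 and -0.085 in SW480. In SW480 the same-numbered values ranged from -0.413 to 0.573, and those with different numbers from -0.600 to 0.600. Same-numbered SW480 libraries were not all on the same side, so the mean there cannot decide whether the numbers mark pairs. POLR1D passed the threshold in HT29 with the block and missed it in SW480 with the block and on the side of 5 libraries. Differences between the lines turned to 0.32 for DPEP1 and -0.21 for SLC26A3 with the block. After quantile normalization the DPEP1 log2 difference, SW480 response minus HT29 response, turned to 0.0066, and HSD11B2 between siRNAs in SW480 to -0.089. The cause was not tested.

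Leaving out 1 library gave 0 to 1 genes in HT29, 534 (without siPOLR1D-3 replicate 3) to 1283 (without SCR replicate 1) in SW480, 39 (without siPOLR1D-3 replicate 2) to 777 (without siPOLR1D-2 replicate 3) between siRNAs there, and 2 to 17 between the lines. Between siRNAs, HSD11B2 spanned -0.13 to 0.076 in HT29 and -0.12 to 0.32 in SW480, and in SW480 CDH17 spanned -0.11 to 0.50 and POLR1D -0.22 to 0.072. Between the lines DPEP1 spanned -0.25 to 0.21 and CA2 -0.19 to 0.34.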
